A study of Homo sapiens with 4 samples.

Results

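The genes described here are 10 receptor tyrosine kinases and growth factor ligands that act in renal carcinoma, taken by their symbols from the 59050 genes of the count file. The 6 receptors were EGFR, ERBB2, ERBB3, MET, AXL and FGFR1, and the 4 ligands were HBEGF, AREG, EREG and GAS6. All 10 were among the 16516 genes that passed the filter on low counts and were tested. EREG passed it only through the shPML libraries, so its share in any count of changed genes carries less weight than that of the other 9 genes. The cells were RCC4, a human ccRCC line without functional VHL, transduced with lentivirus for a doxycycline-inducible shRNA against PML (shPML, a PML knockdown) or a scrambled hairpin (shCtrl, the control). Both groups received doxycycline at 100 ng/ml for 96 h, and cells were used as bulk populations after puromycin selection, not as clones. The 2 shCtrl and 2 shPML libraries came from 2 experiments with independent infections. Libraries with the same replicate number, 1 of either group, were taken to be from the same experiment, which the labels do not state.

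Receptor tyrosine kinases span the membrane, pair up when a ligand binds outside the cell, and phosphorylate each other's tails to recruit adaptors that start the RAS-ERK and PI3K-AKT cascades. EGFR is bound by EGF-like growth factors that are made as membrane proteins and released by shedding, while ERBB2 has no known ligand of its own and ERBB3 has a weak kinase, so each of them signals in pairs with other ERBB receptors. MET is the receptor of HGF, and AXL that of GAS6. Both are known in ccRCC as hypoxia-linked receptors and drug targets, and the EGFR ligand TGFA is likewise induced by the hypoxia-inducible factors that VHL loss stabilises.

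PML, the targeted gene, was at 93.1 and 136 CPM (counts per 1000000 reads, after TMM scaling of the libraries) in shCtrl replicates 1 and 2 and at 54.9 and 87.6 CPM in shPML, so that it was lower in both shPML libraries. It fell by 0.70 on the log2 scale (SE, the standard error, 0.11, adjusted p = 4.2e-07, quasi-likelihood test of edgeR with the experiment as a block, Benjamini-Hochberg), and the adjusted p was 0.32 in edgeR without that block. In bulk RNA, fewer cells of a type and less RNA per cell cannot be told apart. Library totals ran from 27781193 to 69870617 counted reads. Of 12 genes of tubular and renal carcinoma epithelium, 11 were tested, among them PAX8, VIM and CA9, and LRP2 had at most 1 count in any library. The shPML library of replicate 2 stood apart from the other 3. Of 6 leukocyte genes, 4 (PTPRC, ITGAM, LYZ and CD14) were highest there, and the T cell gene CD3E had 0 counts in every library. The summed leukocyte level was 146 CPM in that library and between 1.18 and 2.58 CPM in the others. A list of 19 monocyte and macrophage genes, added after these counts had been seen and sharing LYZ and CD14 with the first, summed to 321 CPM there and to between 1.13 and 2.81 CPM in the others, with 17 of its genes highest in that library. C1QB and CD68, also on this list, went the other way, with 0 counts there. Of 5 endothelial genes, only PECAM1 was highest there, with 113 counts, while CDH5, TEK and CLDN5 had 0 counts there. Where a value is said below to rest on this library, values of the other libraries are given as well.

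Promoter sequence is shown for EREG and AREG, ligand genes that neighbour each other, and for MET. Of the 2 ligand genes only EREG passed the thresholds for a change given below, and MET was the only receptor that passed them as higher. EREG and AREG lie 56.4 kb apart on chromosome 4 and on the same strand. Each run holds the 250 bases before the RefSeq start (GRCh38.p14, plus strand, 5′ to 3′), and each start was also the first base of the gene in the count file. Capitals mark matches on either strand to 4 short words, namely TATAAA (the TATA box), GGGCGG (the GC box), TGACGTCA (the cAMP response element) and TGACTCA (the AP-1 site). They span chr4:74364895-74365144 for EREG, chr4:74444886-74445135 for AREG and chr7:116671946-116672195 for MET.
EREG: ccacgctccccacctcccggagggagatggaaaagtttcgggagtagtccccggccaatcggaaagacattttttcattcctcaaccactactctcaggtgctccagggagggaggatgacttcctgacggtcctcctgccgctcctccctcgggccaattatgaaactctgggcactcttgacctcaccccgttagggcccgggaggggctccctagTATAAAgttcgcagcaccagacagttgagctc
AREG: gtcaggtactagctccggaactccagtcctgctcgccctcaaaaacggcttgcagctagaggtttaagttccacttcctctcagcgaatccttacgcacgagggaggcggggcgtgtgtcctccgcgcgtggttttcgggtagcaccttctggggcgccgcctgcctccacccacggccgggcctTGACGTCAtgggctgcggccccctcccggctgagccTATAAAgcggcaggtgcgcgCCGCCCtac
MET: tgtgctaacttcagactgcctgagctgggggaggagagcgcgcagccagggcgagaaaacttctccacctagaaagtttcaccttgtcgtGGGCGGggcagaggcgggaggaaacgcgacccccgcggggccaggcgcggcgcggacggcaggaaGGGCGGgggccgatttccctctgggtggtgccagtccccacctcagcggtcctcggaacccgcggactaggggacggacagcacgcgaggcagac
EREG and AREG each held a TATA box, 32 and 29 bases before the start, which 10.7% of the 35116 promoter windows of this length held. AREG also held a cAMP response element 65 bases before the start, found in 1.65% of windows, and a GC box. The MET window held 2 GC boxes and no TATA box, and GC boxes were present in 42.6% of windows. The AP-1 word, present in 4.2% of windows, was in none of the 3 windows shown. These are matches of letters and say nothing of binding.

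The level of each gene was compared first within the cells, as CPM per kilobase of exon (per length), the only scale on which different genes were set side by side. AXL was the most abundant of the 6 receptors in every library, between 122 and 194 CPM per kb, and took 38.9% to 50.1% of their summed level. MET came second in every library. Its level was 70.3 and 64.6 CPM per kb in shCtrl, close to FGFR1 at 63.8 and 57.6 CPM per kb, and the ratio of MET to FGFR1 was 1.10 and 1.12. In shPML the same ratio was 4.41 and 3.63. FGFR1 stood above EGFR in both shCtrl libraries and below it in both shPML libraries.
Within the ERBB family EGFR carried most of the transcript level, ERBB2 less, and ERBB3 next to none. ERBB2 contributed 32.2% and 37.8% of the summed ERBB level per length in shCtrl and 23.2% and 26.8% in shPML. The sum itself ranged from 56.5 to 59.6 CPM per kb over the 4 libraries, with no gap between the groups. ERBB4 had 0 counts in each library. Among the ligands, GAS6 was the most abundant, between 47.6 and 69.7 CPM per kb, a range that held both FGFR1 levels of shCtrl, and HBEGF followed with 20.04 to 29.4 CPM per kb. AREG and EREG were each under 0.4 CPM per kb, apart from EREG in the shPML library of replicate 2 at 3.003 CPM per kb.

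shPML was then compared with shCtrl to ask which receptors and ligands differed between them. Both shPML libraries carried the same hairpin against PML, so effects of PML loss and other effects of that hairpin cannot be told apart. MET and EREG were called higher and FGFR1 was called lower, where a call needed both an adjusted p below 0.05 and a change of more than 0.5 on the log2 scale in the blocked edgeR test. This is 2 of 10 genes higher and 1 of 10 lower, beside 8.57% and 10.5% of all genes tested. Without EREG, which passed the filter only through the shPML libraries, MET alone was called higher. AXL and ERBB2 also passed the adjusted p, with changes smaller than 0.5, so 5 of the 10 genes passed at any size, beside 30.2% of all genes. The 10 genes had a median log2 fold change of -0.15, beside 0.00423 for all genes tested. In edgeR without the block none of the 10 passed, and 4 of them (FGFR1, MET, EREG and ERBB2) had an unadjusted p under 0.05. That fit called 0.0787% of all genes higher and 0.333% lower. DESeq2 without the block called MET and EREG higher and FGFR1 lower, as the blocked edgeR test did. Libraries of shPML lay on 1 side of both shCtrl libraries for 8 of the 10 genes, 4 higher and 4 lower, where 23.1% of all genes were higher in this sense and 24.9% lower. EREG is among the 4 higher. HBEGF and AREG are among the 4 lower by small margins, with 51.55 CPM in shPML against 51.86 in shCtrl, and 0.327 against 0.361 CPM.

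FGFR1, a receptor for fibroblast growth factors, occupies bases 38411138 to 38468834 of chromosome 8 (GRCh38, as for all coordinates here). It was measured at 416 and 376 CPM in shCtrl replicates 1 and 2, and at 172 and 188.5 CPM in the shPML replicates. Both shPML libraries lay far below both shCtrl libraries, and the spread within a group was small beside the gap. FGFR1 fell by 1.13 on the log2 scale (SE 0.10, adjusted p = 2.1e-14, blocked edgeR test), and shCtrl was 2.19 times as high as shPML. The log2 ratio was -1.27 in experiment 1, without the library that held leukocyte transcripts, and -0.99 in experiment 2. Without the block the adjusted p was 0.0616 in edgeR and 3.89e-07 in DESeq2. A pseudogene on the same strand, RPS20P22, lies within FGFR1 and had between 13 and 31 counts, beside 5184 or more for FGFR1.

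MET lies on chromosome 7 from 116672196 to 116798386. Its level was 484 and 445 CPM in the shCtrl replicates, and 804 and 723 CPM in the shPML replicates. All of the shPML values were above all of the shCtrl values. MET rose with a log2 fold change of 0.72 (SE 0.09, adjusted p = 4.7e-09, blocked edgeR test), a 1.64-fold rise. The log2 ratio was 0.73 in experiment 1 and 0.70 in experiment 2. The leukocyte genes summed to at most 2.58 CPM in the libraries of experiment 1, and their part in the MET values was not tested. Leaving out the block gave an adjusted p of 0.106 in edgeR and of 0.00213 in DESeq2. HGF, the ligand of MET, had 1 count in 1 library and 0 in the others. MST1, which encodes the HGF-like protein that binds the related receptor MST1R, rose from 2.85 and 2.56 CPM in shCtrl to 6.08 and 9.13 CPM in shPML (log2 fold change 1.45, SE 0.26, adjusted p = 9.2e-06 in the blocked test), while MST1R itself did not pass the filter.

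AXL, on chromosome 19 from 41219223 to 41261766, was at 597 and 716 CPM in shCtrl and at 760.4 and 945 CPM in shPML. The groups did not overlap, though the lower shPML value exceeded the higher shCtrl value by little. It was higher by 0.38 on the log2 scale (SE 0.09, adjusted p = 0.000839, blocked edgeR test), which is short of 0.5, and AXL was not called. The ratios within the experiments were alike, with 0.35 and 0.40 on the log2 scale. Its ligand GAS6, a vitamin K-dependent protein on chromosome 13 from 113820549 to 113864076, was at 125 and 172 CPM in shCtrl and at 119 and 175 CPM in shPML. The GAS6 values of the 2 groups interleaved, and their order followed the experiment, with both libraries of replicate 2 above both of replicate 1. The log2 fold change of GAS6 between conditions was -0.02 (SE 0.10, adjusted p = 0.904, blocked edgeR test). GAS6-AS1 overlaps GAS6 on the opposite strand, with 73 to 286 counts. Whether the counting used strand is not given in the sources used here, so reads of the pair cannot be told apart. PROS1, the other ligand of this receptor family, was not called (log2 fold change 0.36, adjusted p = 0.0133).

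EGFR, on chromosome 7 from 55019017 to 55211628, was at 450.2 and 405 CPM in shCtrl and at 491 and 494 CPM in shPML. Both shPML values were higher. Its log2 fold change was 0.21 (SE 0.09, adjusted p = 0.0947, blocked edgeR test), and EGFR did not pass.
ERBB2, on chromosome 17 from 39687914 to 39728662, was at 107 and 123 CPM in shCtrl and at 74.35 and 90.2 CPM in shPML. Each shPML value lay below each shCtrl value. The log2 fold change was -0.49 (SE 0.11, adjusted p = 0.000232, blocked edgeR test), just short of the threshold of 0.5, so ERBB2 was not called. It was -0.52 within experiment 1 and -0.45 within experiment 2. PGAP3 and MIEN1 overlap the ends of ERBB2 on the opposite strand and had log2 fold changes of 0.04 and 0.14, neither of which passed.
ERBB3, on chromosome 12 from 56079861 to 56103505, had 14 and 22 counts in shCtrl and 15 and 10 counts in shPML. At this depth its levels, from 0.209 to 0.611 CPM, overlapped between the groups. The log2 fold change of -0.52 had a SE of 0.83 (adjusted p = 0.701, blocked edgeR test), so a change of ERBB3 was not detectable.

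EREG encodes epiregulin, a ligand of EGFR and ERBB4, and lies on chromosome 4 from 74365145 to 74388749. It had 10 and 4 counts in shCtrl replicates 1 and 2, and 43 and 381 counts in the shPML replicates. As levels these were 0.185, 0.111, 0.60 and 13.9 CPM in the same order. Each shPML library was above both shCtrl libraries, but 1 of them held most of the reads. The fit gave a log2 fold change of 4.44 (SE 0.57, adjusted p = 4.4e-09, blocked edgeR test), an average over experiments that differed widely.
In experiment 1 EREG was 3.25-fold higher in shPML, with a 95% exact binomial interval of 1.61 to 7.25 that covers counting error only. In experiment 2 it was 125-fold higher, with an interval of 48.3 to 460 from the 4 shCtrl counts. These intervals did not overlap. DESeq2 did not call EREG with the block (adjusted p = 0.0675) and called it without the block (log2 fold change 5.62, adjusted p = 0.0179). In edgeR the adjusted p without the block was 0.169, and edgeR without the block and without the shPML library of replicate 2 gave 1.99 (adjusted p = 0.479). The high value of EREG was in the library that carried leukocyte transcripts, with 2349 counts of LYZ and 1177 of CD14, against at most 4 counts of either gene in any other library. Their part in the EREG value of replicate 2 was not tested. In the shPML library of replicate 1, where LYZ and CD14 had 3 counts each, EREG had 43 counts. RNA from other cells and a change within RCC4 cells cannot be told apart in bulk libraries.

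AREG encodes amphiregulin, an EGFR ligand, on chromosome 4 from 74445136 to 74455005. It had 21 and 13 counts in shCtrl and 16 and 9 counts in shPML, or 0.388 and 0.361 CPM against 0.223 and 0.327 CPM. The groups did not overlap by a small margin, but the counts were too low for a difference to be detectable. The log2 fold change was -0.49 (SE 0.84, adjusted p = 0.726, blocked edgeR test). The ratio of EREG to AREG per length was 0.127 and 0.0823 in shCtrl and 0.719 and 11.3 in shPML. The value of 11.3 came from the shPML library of replicate 2, which held leukocyte transcripts. Whether the change of EREG differed from that of AREG was not tested.
HBEGF, which encodes heparin-binding EGF-like growth factor on chromosome 5 from 140332843 to 140346603, was at 51.9 and 69.3 CPM in shCtrl and at 51.55 and 47.2 CPM in shPML. The values of experiment 1 were nearly equal, and those of experiment 2 were apart. The log2 ratio was -0.01 in experiment 1 and -0.55 in experiment 2, with 95% counting intervals of -0.08 to 0.06 and -0.65 to -0.46. Over both, the log2 fold change was -0.28 (SE 0.12, adjusted p = 0.0815, blocked edgeR test), and HBEGF did not pass.

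The experiments were also compared with each other in the same fit, since they came from separate infections. Of the 10 genes, 2 were called between experiments, beside 13.5% of all genes tested. GAS6 was higher in experiment 2 with a log2 fold change of 0.50 (SE 0.10, adjusted p = 9.5e-05, edgeR's quasi-likelihood test), and EREG with 3.20 (adjusted p = 1.1e-05), which again rested on the shPML library of replicate 2, as the shCtrl level of EREG was lower in experiment 2. AXL passed the adjusted p with 0.29 and was not called. For FGFR1 and MET the difference between experiments was -0.01 and -0.14 on the log2 scale (adjusted p = 0.961 and 0.306), small beside their differences between conditions.

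The rest of the receptor tyrosine kinase system was described with 7 lists, which hold the 10 genes as well. They were written from general knowledge, with earlier results of these data known. Of their 157 genes, 111 were tested, 11 were called higher and 19 lower, beside 8.57% and 10.5% of all genes. MET, EREG and FGFR1 are among those called. Among 54 receptors outside the ERBB family 31 were tested, 3 were called higher (MET, DDR1 and CSF1R) and 9 lower, and the median was -0.13 on the log2 scale. All 4 fibroblast growth factor receptors were called lower in the blocked fit. FGFR2 fell from 7.96 and 14.9 CPM in shCtrl to 1.56 and 1.2 CPM in shPML, a log2 fold change of -2.91 (SE 0.26). FGFR3 fell by 1.46 and FGFR4, which was named after its values were seen, by 1.04 on the same scale. The summed level of the 4 receptors per length was 77.3 and 77.6 CPM per kb in shCtrl and 32.1 and 38.1 in shPML, of which FGFR1 held 74.3% to 82.6% in every library. In edgeR the call of each was lost without the block, with an adjusted p between 0.058 (FGFR2) and 0.196 (FGFR4). Only 0.333% of all genes were called lower in that fit.
EPHA4, an ephrin receptor, fell by 1.19 on the log2 scale, with -1.34 and -1.02 within the experiments. PDGFRB, a receptor of platelet-derived growth factors, changed by -1.22, but its level in shCtrl was 3.44 and 9.53 CPM, and the ratio was -0.50 in experiment 1 and -1.99 in experiment 2. DDR1, a collagen receptor, was at 83.7 and 99.4 CPM in shCtrl and at 149 and 215.5 CPM in shPML (log2 fold change 0.97, adjusted p = 2.1e-11 in the blocked test). CSF1R, a receptor of the monocyte lineage, was at 26.6 CPM in the shPML library of replicate 2 and between 0.153 and 1.19 CPM in the others, so its call (adjusted p = 0.0351, blocked edgeR test) rested on the library with leukocyte transcripts, and in experiment 1 it was lower in shPML. DDR1 and CSF1R were likewise named after their values were seen.

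Among the 11 ERBB ligands 7 were tested, and EREG was the only one called, higher. The others included TGFA, at 171 and 158 CPM in shCtrl and 195 and 177 CPM in shPML (log2 fold change 0.18, adjusted p = 0.19), and NRG1, a ligand of ERBB3 and ERBB4, with a log2 fold change of 0.49 (adjusted p = 0.000128, short of 0.5, blocked edgeR test). Of 48 ligands of other receptors 31 were tested, 3 were called higher and 8 lower, with a median of -0.29. The counts of both ligand lists stand beside 8.57% of all genes tested called higher and 10.5% called lower.
FGF1, which binds all fibroblast growth factor receptors, fell from 20.5 and 19.8 CPM to 5.76 and 4.91 CPM, a log2 fold change of -1.91 (SE 0.16, adjusted p = 8.7e-15 with the block and 0.0484 without it, both in edgeR). BDNF, a ligand of NTRK2, fell from 57.5 and 54.9 CPM to 19.8 and 22.3 CPM, a log2 fold change of -1.42 (SE 0.12, adjusted p = 1.6e-14 with the block and 0.0484 without it, both in edgeR). These were the 2 genes of the 7 lists that edgeR also called without the block. NTF3, a ligand of NTRK3, changed by -1.32, with -0.77 and -1.96 within the experiments. NTRK2 had at most 1 count in any library, and NTRK3 was between 0.203 and 0.823 CPM.

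The sheddases, adaptors and negative regulators next to the receptors were described in the same way. Their counts stand beside 8.57% of all genes tested called higher and 10.5% called lower. Of 10 genes for sheddases and ligand traffic, all tested, RHBDF1, a catalytically inactive rhomboid protein, was called higher (log2 fold change 0.53, with 0.23 and 0.84 within the experiments) and none lower. ADAM17, the main sheddase of HBEGF, AREG and EREG, was not called, with a log2 fold change of 0.24 (adjusted p = 0.0936, blocked edgeR test). Of 13 adaptor genes, 2 were called higher and 1 lower. SHC1 was at 159 and 164 CPM in shCtrl and at 250.4 and 268 CPM in shPML (log2 fold change 0.68), and FRS2, the adaptor of fibroblast growth factor receptors, changed by 0.75. GRB2, which links receptors to the RAS activator SOS1, was at 117 and 125 CPM in shCtrl and at 78.5 and 85.2 CPM in shPML (log2 fold change -0.56). Among 17 negative regulators 16 were tested, with 1 called in each direction. CBL, the ubiquitin ligase that targets EGFR and MET for degradation, changed by -0.70. The receptor phosphatase PTPRJ changed by 0.59, with 0.41 in experiment 1, short of 0.5, and 0.76 in experiment 2. Without the block edgeR called none of these 6 genes, with an adjusted p between 0.105 (SHC1) and 0.352 (RHBDF1). That fit called only 0.0787% of all genes higher and 0.333% lower.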

How the data were processed

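RNA sequencing of the 4 RCC4 libraries was analysed. According to the methods, the authors prepared stranded mRNA libraries, trimmed single-end reads with Trimmomatic 0.39, used STAR for alignment to GRCh38 and assigned reads to Gencode genes with featureCounts 1.6.4, and the deposited values are raw counts per gene, with the gene length in bases. The release number and the strand setting are not given in the sources used here. Columns without a number were taken as replicate 1, since the other column of each group carries the number 2. The record notes that the labels of 2 libraries were exchanged at first and later corrected, and the corrected labels were used.

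Genes were kept with filterByExpr, scaled by TMM to CPM (counts per 1000000 reads) and tested across all genes in edgeR 4.0.16 (R 4.3.3, quasi-likelihood, Benjamini-Hochberg). The experiment was a block, because the methods describe 2 experiments with their own infections. That libraries with the same number belong to the same experiment is an assumption. In a check made afterwards, deviations of same-numbered libraries from their group means correlated across genes (0.546). This fit has 1 residual degree of freedom, so its spread leans on the estimate shared across genes. Its p-values set the difference between shPML and shCtrl against that spread, after differences between the experiments were removed. They cover these libraries only. Each SE was worked back from the F statistic of the test, as the absolute log2 fold change divided by the square root of F. The members, the lists and the block were chosen with earlier results of these data known, including how many genes the block adds. An exact permutation test of 2 against 2 cannot go below 0.333 and was not used. Genes outside the 10 were named as up to 4 called genes of each list with the largest change and the same direction in both experiments. FGFR4, DDR1, CSF1R, TGFA, NRG1, PROS1, ADAM17, HGF, MST1R, ERBB4, NTRK2 and NTRK3 are outside this rule and were chosen after their values were seen. Alternatives were DESeq2 1.42.0, no block, RLE, other filters and thresholds, and each library left out. Fits were tested on simulated data. The RefSeq promoter table held 8 of the 10 genes.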

Additional observations from a re-analysis of the deposited data

Results flagged for a closer look

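GAS6 had opposite directions in the 2 experiments, with a log2 ratio of shPML to shCtrl of -0.0669 in experiment 1 and 0.0228 in experiment 2. The difference between the experiments was not tested, as each holds 1 library of either group, and both ratios are within 1 standard error (0.10) of 0. No group was large enough to look for single outlying samples.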

How the results depend on the processing

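With the replicate block, 1415 genes were called higher and 1735 lower in edgeR, and without it 13 and 55 (smallest adjusted p 0.0484, 2958 genes with an unadjusted p under 0.05). DESeq2 without the block called 577 higher and 898 lower. With no threshold on the fold change 2391 genes were higher, and beyond a log2 change of 1 there were 550 higher and 646 lower. Leaving out 1 library, without the block, gave 1 to 11 genes higher and 0 to 29 lower, with 5 and 15 without shPML replicate 2. In these fits the lone library is assumed to vary like the other group. Of the 10 genes, edgeR without the block called 0 higher and 0 lower, with a smallest adjusted p of 0.0616 (FGFR1), and DESeq2 without it called 2 higher (MET and EREG) and 1 lower (FGFR1). DESeq2 with the block and a minimum of 10 counts in every library each left 1 called higher (MET), EREG being lost, and a change beyond 1 left 1 higher (EREG). With no threshold on the fold change 2 were lower (FGFR1 and ERBB2). Leaving out 1 library gave 0 to 1 higher, EREG without shPML replicate 1, and 0 lower. Within experiment 1 alone, an alternative chosen after seeing the data, 3 genes (FGFR1, ERBB2 and AREG) were lower by more than 0.5, with no test. In the lists edgeR without the block called 0 genes higher and 2 lower. Between experiments 1 of the 10 genes was called in DESeq2, 1 with no filter and 0 with at least 10 counts in every library. The log2 fold change turned positive for ERBB3 without shCtrl replicate 2 (0.11), and for GAS6 without shCtrl replicate 2 (0.23) or shPML replicate 1 (0.23). For MET, FGFR1, ERBB2, AXL, EGFR, HBEGF, AREG and EREG no alternative that tested the gene turned the direction. The causes were not tested. With 9 to 22 counts per library, ERBB3 and AREG are too shallow for a change of moderate size to be seen.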
